A study of Mus musculus with 24 samples.

Results

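Rbm3, Cirbp, Ptbp1 and Ptbp2 encode 4 RNA-binding proteins and were read by 8 of the 41174 probes of the array, taken by the gene name in the scanner files. All 4 genes were among the 16240 tested, where a gene entered if some group had its probe well above background 4 times out of 4. They were chosen on measured values, the opposite changes of Rbm3 and Ptbp2 in the TO line described here, so values of TO against the other lines are a description and carry no test. The same holds for the medium responses of Rbm3 and Ptbp2 within TO, which use the same samples. The WT and OT samples are the other side of those contrasts. Tests of Rbm3 and Ptbp2 in WT and OT, pair differences included, are therefore not independent of the choice.

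The samples were N1E-115, a mouse neuroblastoma line that serves as a neuronal model, and 2 lines made from it by transfection. TO cells carry a fusion with transcobalamin, the cobalamin carrier, at the N-terminus of oleosin, a lipid droplet protein, and this fusion binds cobalamin strongly. OT cells carry transcobalamin at the C-terminus, and no binding was detectable. WT cells were not transfected, so they share the line but neither a fusion nor a transfection. Cultures of every line were kept in proliferation medium (p, with 10% serum at 37 °C) and in differentiation medium (d, with 2.5% serum and 1.25% DMSO), giving WT-p, TO-p, OT-p, WT-d, TO-d and OT-d with 4 samples each. The labels name no shift of temperature, do not say whether a transfected line is 1 clone, and call the samples biological replicates without saying whether they were separate cultures, so p-values speak only of the spread among these samples, which may be technical.

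RBM3 and CIRBP are small glycine-rich proteins with a single RNA recognition motif whose transcripts are known to rise in mild cold and to fall in heat. In neurons RBM3 is known for supporting translation and synapse maintenance, and CIRBP for binding and stabilising transcripts, clock transcripts among them. PTBP1 and PTBP2 bind pyrimidine-rich RNA and mostly repress exons. During neuronal differentiation PTBP1 typically gives way to PTBP2, and PTBP1 itself promotes skipping of a Ptbp2 exon, which sends that transcript to decay.

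The 2 dyes of an Agilent array each carried 1 sample, so 12 arrays on 3 slides held the 24 samples, with 2 samples of every group in each dye. Per sample, 54.26% to 65.87% of spots exceeded background clearly, and the number of arrays limits the precision. All 13 markers of sympathoadrenal and neuronal identity, such as Th and Dbh, were well above background in all 24 samples. Of the markers of other cells, 3 of 8 for glia, 1 of 7 for blood and endothelium and 3 of 8 for fibroblasts and smooth muscle were so in all 24 samples. These 7 were Mbp, Sox10 and S100b, then Hba-a1, then Col1a1, Col1a2 and Acta2. The defining markers Ptprc and Cdh5 were well above background in none, Gfap in 5, Mog in 2 and Lum in 1.

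Of the 4 members, 3 matched an entry in the RefSeq promoter table (GRCm38.p6), namely Cirbp, Ptbp1 and Ptbp2. The 250 bases before their starts are shown because the genes differed in their medium response, and Cirbp and Ptbp1, which lie close together on chromosome 10, moved in opposite directions. Capitals mark GC boxes (GGGCGG), the CCAAT box, E-boxes (CACGTG) and TATA boxes (TATAAA) on either strand, overlaps included.
Cirbp, first of 2 listed starts, chr10:80167589-80167838, plus strand: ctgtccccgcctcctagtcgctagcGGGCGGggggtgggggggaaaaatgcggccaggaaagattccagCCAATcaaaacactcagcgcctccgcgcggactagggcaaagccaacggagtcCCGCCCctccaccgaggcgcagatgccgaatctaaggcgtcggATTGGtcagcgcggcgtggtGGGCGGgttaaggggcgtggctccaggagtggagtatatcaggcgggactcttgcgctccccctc
Ptbp1, chr10:79854182-79854431, plus strand: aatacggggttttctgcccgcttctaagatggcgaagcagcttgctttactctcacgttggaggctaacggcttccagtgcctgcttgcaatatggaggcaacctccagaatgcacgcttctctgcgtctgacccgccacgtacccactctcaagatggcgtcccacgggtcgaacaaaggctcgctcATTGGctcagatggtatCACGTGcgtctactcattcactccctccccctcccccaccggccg
Ptbp2, chr3:119783389-119783638, minus strand: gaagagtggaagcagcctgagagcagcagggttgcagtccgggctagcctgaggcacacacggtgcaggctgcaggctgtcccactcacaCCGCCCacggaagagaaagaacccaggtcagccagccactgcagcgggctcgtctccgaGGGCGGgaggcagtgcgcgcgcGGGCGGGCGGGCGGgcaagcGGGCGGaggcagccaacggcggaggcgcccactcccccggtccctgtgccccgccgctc
The Cirbp window held 3 GC boxes and 2 CCAAT boxes. The Ptbp1 window held no GC box, 1 CCAAT box and 1 E-box, and the Ptbp2 window held 6 GC boxes, some of them overlapping. None of the 3 held a TATA box in these letters. Among 32851 windows of the same length, 32.7% held a GC box, 33.8% a CCAAT box, 6.02% an E-box and 12.4% a TATA box. These matches describe letters only, and no binding was measured.

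The first comparison asked how the cold-inducible pair responded to differentiation medium in each line. Levels are normalized log2 intensities of probe 1, the brighter or sole probe of a gene, and levels of different probes are not compared. Rbm3 probe 1 (A_51_P262340, mm8 chrX:7299489-7299548, minus strand) read 14.40, 14.08, 14.77 and 14.33 in WT-p and 10.56, 11.05, 11.03 and 10.68 in WT-d. In OT it read 14.57, 14.33, 14.28 and 14.37 in proliferation medium and 12.71, 12.43, 12.43 and 12.46 in differentiation medium. In TO the values were 13.23, 13.07, 13.29 and 13.81 in TO-p and 10.61, 10.85, 11.12 and 10.56 in TO-d. Every sample in differentiation medium was thus below every sample of its line in proliferation medium. WT-p and OT-p overlapped at the top, TO-p lay below them, OT-d came next, and WT-d and TO-d overlapped at the bottom.

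Rbm3 fell 12.3-fold in WT and 4.01-fold in OT, and its level in TO-d was 5.79-fold below that in TO-p. The fitted log2 difference was -3.63 ± 0.167 (SE, n = 4 against 4) in WT, with an adjusted p of 2.1e-14 by limma. It was -2.00 ± 0.15 in OT (adjusted p = 4.13e-11) and, as a description, -2.53 ± 0.157 in TO. The fall was smaller in OT than in WT by 1.62 ± 0.214 on the log2 scale, and this difference itself passed the test (adjusted p = 4.44e-06 by limma). The WT and OT samples also enter the TO contrasts behind the choice of Rbm3, so these p-values are not independent of the choice. The TO response was not tested against the others. Within slides the difference was -3.79 and -3.03 in WT, -1.70 and -1.90 in OT, and -2.63, -2.56 and -2.51 in TO.

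Cirbp, the closest relative of Rbm3, did not follow it. Its sole probe (A_51_P272106, mm8 chr10:79574658-79574717, plus strand) read 11.40, 11.61, 11.36 and 11.73 in WT-p and 11.72, 12.30, 12.04 and 11.78 in WT-d. It read 11.14, 11.03, 10.71 and 10.73 in OT-p and 12.61, 12.39, 12.18 and 12.31 in OT-d, groups that are far apart. In TO it read 10.85, 10.94, 10.99 and 11.03 in TO-p and 11.28, 11.14, 11.17 and 11.17 in TO-d, which are narrowly separate. From the highest mean down the order was OT-d, WT-d, WT-p, TO-d, TO-p and OT-p. OT-d overlapped WT-d, WT-d overlapped WT-p, and TO-p overlapped OT-p.

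Cirbp rose 2.58-fold in OT, by 1.37 ± 0.112 (SE) on the log2 scale (adjusted p = 2.1e-10 by limma). The rise in WT was 1.32-fold, or 0.40 ± 0.125 (adjusted p = 0.00756), and it did not pass the test without WT-d replicate 2 (0.24, adjusted p = 0.0947) or with loess within arrays alone (0.15, adjusted p = 0.376). In TO the difference of 0.24 ± 0.118 missed the threshold (adjusted p = 0.0923, 95% interval 0 to 0.49). It passed with Agilent's processed signals (0.29, adjusted p = 0.0418) and with loess alone (0.32, adjusted p = 0.0469). The response in OT exceeded that in WT by 0.97 ± 0.161 (adjusted p = 6.84e-05). Within slides the difference was 0.30 and 0.68 in WT, 1.79 and 1.36 in OT, and 0.44, 0.15 and 0.23 in TO.

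The unequal change of the pair was tested on the difference Rbm3 minus Cirbp in each sample. Its change was -4.00 in WT, -3.34 in OT and -2.81 in TO on the log2 scale, with no overlap between media in any line. WT and OT each gave an exact permutation p of 0.0286 (two-sided), the smallest that 4 against 4 samples allow. Adjusted over the 10 tests of this kind it was 0.0357. Rbm3 is part of this difference, so these p-values are not independent of the choice.

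**Figure D1:**
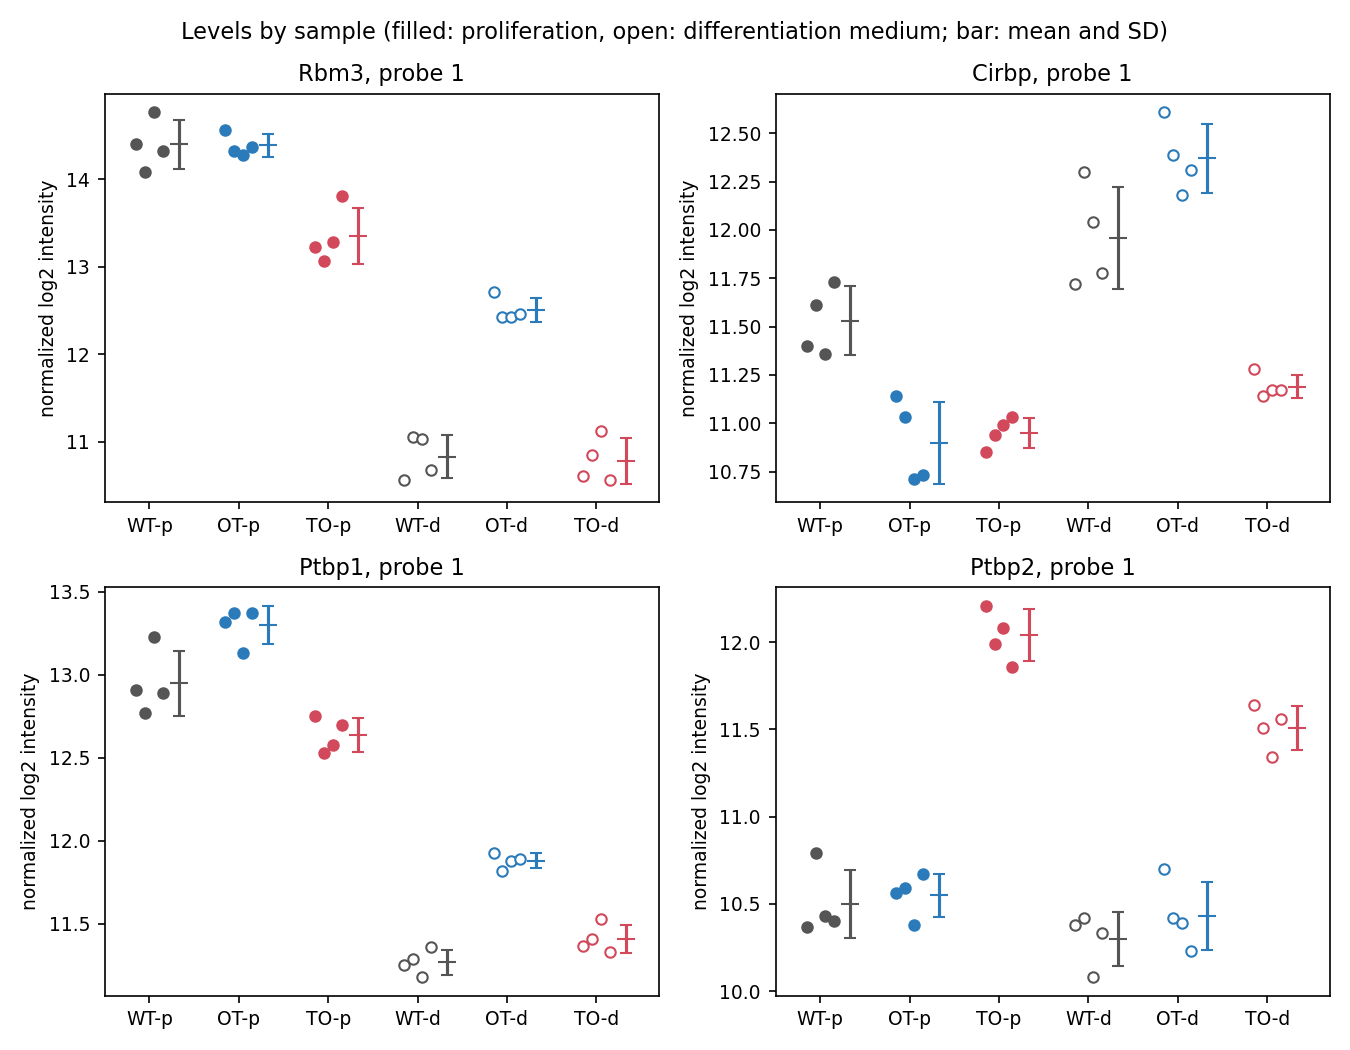
Normalized log2 intensity (y axis) of probe 1 of each gene in the 6 groups (x axis), with 1 point per sample, filled for proliferation and open for differentiation medium, and the mean with its SD over 4 samples beside them. Rbm3 and Ptbp1 sit lower in differentiation medium in every line, Cirbp is highest in OT-d, and Ptbp2 is highest in the 2 TO groups.

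The PTB pair was read for the exchange of Ptbp1 for Ptbp2 that marks differentiating neurons. Ptbp1 fell in all 3 lines, and on probe 1 Ptbp2 was not higher on average in differentiation medium in any. Ptbp1 probe 1 (A_51_P462692, mm8 chr10:79267289-79267347, plus strand) read 12.91, 12.77, 13.23 and 12.89 in WT-p and 11.25, 11.29, 11.18 and 11.36 in WT-d. OT-p read 13.32, 13.37, 13.13 and 13.37, and OT-d read 11.93, 11.82, 11.88 and 11.89. TO-p read 12.75, 12.53, 12.58 and 12.70, and TO-d read 11.37, 11.41, 11.53 and 11.33. The media were well apart in each line. OT-p overlapped WT-p at the top, TO-p lay below both, OT-d lay above TO-d, and TO-d overlapped WT-d.

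Ptbp1 fell 3.17-fold in WT (-1.67 ± 0.084, adjusted p = 9.05e-14 by limma), 2.72-fold in OT (-1.44 ± 0.0752, adjusted p = 8.45e-14) and 2.31-fold in TO (-1.21 ± 0.0791, adjusted p = 1.29e-11). The responses of OT and WT differed by 0.22 ± 0.108, which missed the threshold (adjusted p = 0.113, 95% interval 0 to 0.45), although it passed without WT-p replicate 2 (0.31, adjusted p = 0.0281). Within slides the fall ran from -1.79 to -1.17 over the 3 lines. Probe 2 (A_52_P234619, mm8 chr10:79265597-79265656) gave -1.52 ± 0.126 in WT, -1.51 ± 0.112 in OT and -1.02 ± 0.118 in TO, all past the test over 24349 probes. The largest adjusted p of these was 1.43e-07, and the 2 probes correlated at 0.96 over the 24 samples.

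Ptbp2 probe 1 (A_51_P363818, mm8 chr3:119711561-119711621, minus strand) read 10.37, 10.79, 10.43 and 10.40 in WT-p and 10.38, 10.42, 10.08 and 10.33 in WT-d. It read 10.56, 10.59, 10.38 and 10.67 in OT-p and 10.70, 10.42, 10.39 and 10.23 in OT-d. These 4 groups overlapped one another. TO-p read 12.21, 11.99, 12.08 and 11.86 and TO-d read 11.64, 11.51, 11.34 and 11.56, so every TO sample was above every sample of the other lines.

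On probe 1 the medium response of Ptbp2 was -0.14 ± 0.0901 in WT (adjusted p = 0.162 by limma, 95% interval -0.33 to 0.04) and -0.12 ± 0.0807 in OT (adjusted p = 0.203, -0.29 to 0.05). In WT it passed with loess alone (-0.34, adjusted p = 0.0203) and without the 6 samples whose number carries the letter b (-0.24, adjusted p = 0.0423). In TO the difference was -0.46 ± 0.0849, a level 1.37-fold lower in TO-d, given as a description. With the local backgrounds as the files give them that value was -0.25. The difference Ptbp2 minus Ptbp1 rose by 1.48 in WT, 1.30 in OT and 0.71 in TO, each without overlap between media. In WT and OT the exact permutation p was 0.0286 (two-sided), or 0.0357 adjusted over 10 tests. The WT and OT samples enter the TO contrasts behind the choice of Ptbp2, so its p-values are not independent of the choice.

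The 3 probes of Ptbp2 disagreed on the medium. Probe 2 (A_52_P422088, mm8 chr3:119730986-119731045) and probe 3 (A_52_P593110, mm8 chr3:119752687-119753717) lie farther upstream on the minus strand, and the files give probe 3 a span far longer than those of the others. In WT, probe 2 rose by 1.47 ± 0.283 (adjusted p = 8.65e-05 over the probes tested, limma), from 7.51, 8.80, 7.67 and 8.17 to 9.86, 8.76, 9.03 and 9.89, groups that overlap slightly. Probe 3 differed by 0.92 ± 0.0949 between TO-d and TO-p, going from 8.85, 8.53, 8.63 and 9.01 to 9.72, 9.63, 9.50 and 9.57, while probe 1 was lower in TO-d in the same samples. In OT, probe 3 fell by 0.54 ± 0.0902 (adjusted p = 1.41e-05). Over the 24 samples probe 1 correlated with probe 2 at 0.736 and with probe 3 at 0.799. The position of these probes in exons and isoforms was not analysed here.

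**Figure D2:**
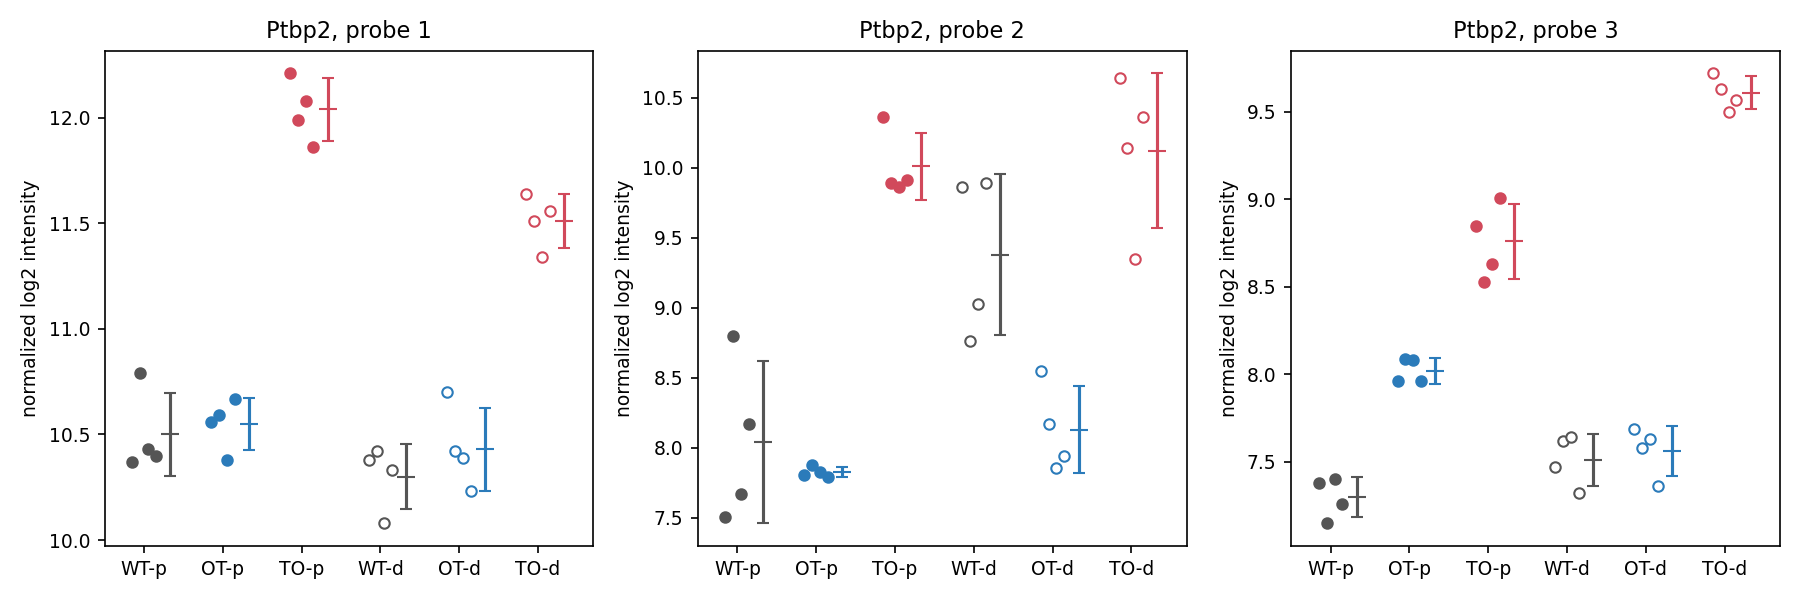
Normalized log2 intensity (y axis) of the 3 Ptbp2 probes in the 6 groups (x axis), drawn as points per sample with the mean and SD of 4 samples. All 3 probes have their TO-p points above those of WT-p and OT-p, whereas the step from p to d has a different direction from probe to probe.

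Rbm3 also has a second probe (A_52_P280360, mm8 chrX:7297866-7297925), which stayed between 5.99 and 6.81 in all samples. It was well above background in 4 of 4 samples of OT-p, in 2 of OT-d and in 1 of each other group. It entered the analysis through OT-p alone, so it is given with no test. Its medium responses were -0.04, -0.13 and -0.05 in WT, OT and TO, close to background, and the fall of Rbm3 rests on probe 1.

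Against these values stand the counts over all genes. In the medium comparisons 3 of the 4 members were called in WT, where 66.7% of all genes were, 3 of 4 in OT (67.4%) and 3 of 4 in TO (52.4%). Nothing is read from the TO count, since it includes Rbm3 and Ptbp2. For the difference in response between OT and WT it was 2 of 4, against 34.9%. With loess alone the split of all genes in WT-d over WT-p was 3671 higher and 5970 lower rather than 5829 and 5011, in OT-p over WT-p 1979 and 4426 rather than 3342 and 3904, and in the difference of responses 3948 and 936 rather than 3310 and 2364. In OT-d over WT-d it was 4412 and 2700 rather than 4323 and 4088. A call alone was thus common in these comparisons, and the shares of members called are near the background in WT and OT. The groups did not overlap for 2 members in WT, 3 in OT and 4 in TO, against 51.4%, 62.5% and 46.8% of all genes. Of the 13 identity markers 5 were higher and 4 lower in WT-d over WT-p, 10 and 1 in OT, and 7 and 4 in TO. The summed signal (log2) of the 8 glia markers was 10.07 to 10.48 in WT-p and 11.28 to 11.34 in WT-d, 9.85 to 10.02 and 10.64 to 10.84 in OT, and 9.94 to 10.18 and 10.25 to 10.61 in TO. That of the 8 fibroblast and smooth muscle markers was 13.01 to 13.12 and 11.96 to 12.21 in WT, 13.19 to 13.25 and 12.40 to 12.65 in OT, and 13.08 to 13.26 and 12.40 to 12.63 in TO. That of the 7 blood and endothelium markers was 9.38 to 9.53 and 9.67 to 9.94 in WT, 9.26 to 9.32 and 9.82 to 10.01 in OT, and 9.94 to 10.15 and 10.22 to 10.33 in TO. None of these 3 sums overlapped between media in any line. Mbp, a myelin gene, rose by 1.74 in WT, 1.81 in OT and 0.89 in TO, and the part of these cell type markers in the results was not tested.

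**Figure D3:**
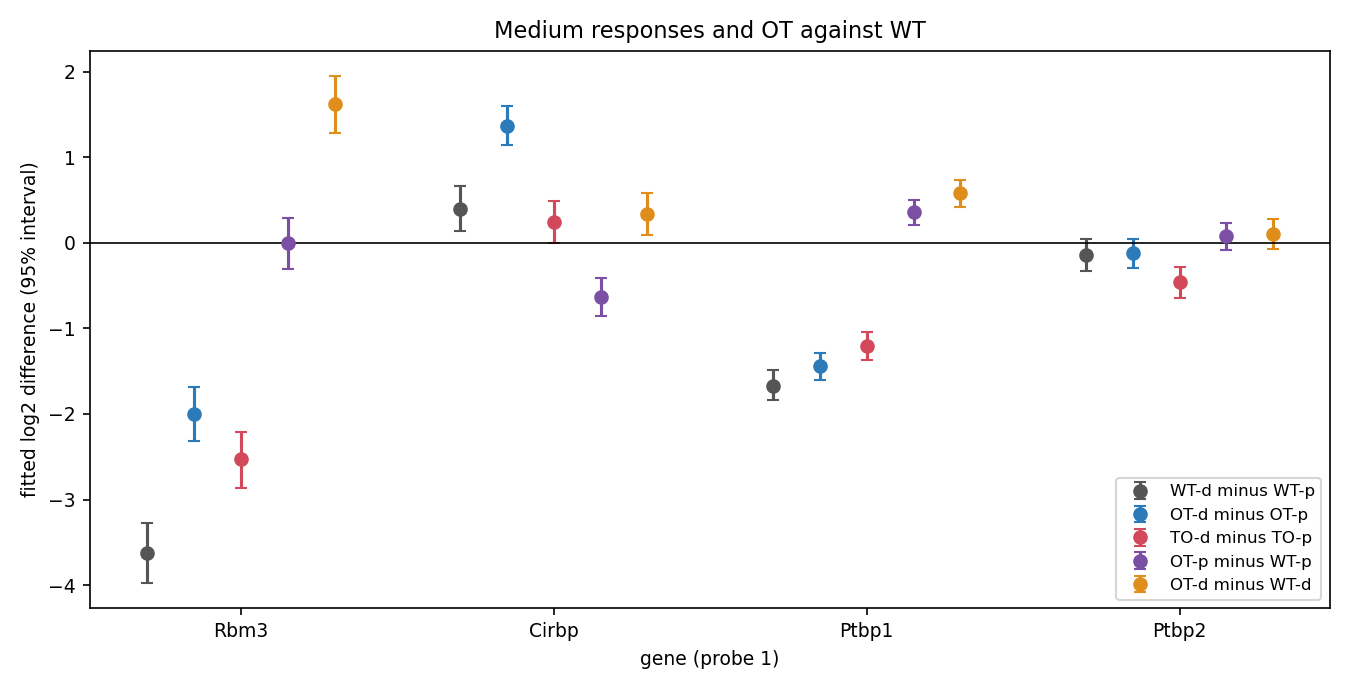
Fitted log2 difference (y axis) with its 95% interval for probe 1 of each gene (x axis) in the 3 medium comparisons and the 2 comparisons of OT with WT. Rbm3 and Ptbp1 lie below 0 in every medium comparison, Cirbp lies highest for OT, and Rbm3 lies at 1.62 for OT-d minus WT-d.

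The next comparison set OT, which carries the fusion without detectable cobalamin binding, against WT. In it the fusion, the transfection and any clonal origin of the line cannot be told apart. In proliferation medium 2 of 4 members were called between OT and WT, where 44.6% of all genes were. Cirbp was 1.55-fold lower in OT-p (-0.63 ± 0.106, adjusted p = 4.51e-05 by limma), and its groups did not overlap, as for 34.1% of genes. Ptbp1 was 1.28-fold higher (0.36 ± 0.0711, adjusted p = 0.000285), with 0.37 ± 0.106 on probe 2. Rbm3 probe 1 differed by 0.00 (95% interval -0.30 to 0.29, adjusted p = 0.99) and Ptbp2 probe 1 by 0.08 (-0.08 to 0.23, adjusted p = 0.463). Ptbp2 probe 3 was higher by 0.78 ± 0.0853 (adjusted p = 1.79e-07 over probes), with 7.96, 8.09, 8.08 and 7.96 in OT-p against 7.38, 7.15, 7.40 and 7.26 in WT-p. Probe 2 differed by -0.18 (adjusted p = 0.584). Within slides Cirbp gave -0.41, -0.68 and -0.73 and Ptbp1 gave 0.26, 0.22 and 0.60.

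In differentiation medium 3 of 4 members were called, against 51.8% of all genes. Of the 13 identity markers 9 were higher and 0 lower in OT-d over WT-d (median 0.62), and their part in the result was not tested. Rbm3 stood 3.07-fold above WT-d in OT-d (1.62 ± 0.157, adjusted p = 1.95e-08 by limma). The same OT-d samples enter TO-d over OT-d (-1.67), a contrast behind the choice of Rbm3, so this p is not independent of the choice. Ptbp1 was 1.49-fold higher in OT-d (0.58 ± 0.0791, adjusted p = 2.43e-06). The groups did not overlap for these 2 genes, nor for 39.9% of all genes. Cirbp was 1.26-fold higher (0.34 ± 0.118, adjusted p = 0.0209), but this call was lost without WT-d replicate 4 (0.24, adjusted p = 0.132), without OT-d replicate 1 (0.27, adjusted p = 0.0674) and with slide as a covariate (0.32, adjusted p = 0.0569). Only slide 3 held both groups, with 2 samples against 1, and there the difference was 1.40 for Rbm3, 0.59 for Ptbp1, -0.05 for Cirbp and -0.11 for Ptbp2. Ptbp2 probe 1 differed by 0.10 (95% interval -0.07 to 0.28, adjusted p = 0.326), while probe 2 was lower in OT-d by 1.20 ± 0.267 (adjusted p = 0.000662 over probes). The difference Rbm3 minus Cirbp was higher in OT-d by 1.27, and Ptbp2 minus Ptbp1 lower by 0.47 (exact permutation p = 0.0286 each, two-sided, adjusted 0.0357). In proliferation medium these differences were 0.61 (exact p = 0.0571) and -0.30 (exact p = 0.143). Each of these pairs holds a chosen gene, Rbm3 or Ptbp2. The samples also enter the contrasts behind the choice, so the permutation p-values are not independent of it either.

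The values behind the choice of the genes are those of TO. In proliferation medium the Rbm3 level of TO was 2.2-fold below those of OT and WT (-1.14 in each case), and Ptbp2 was 2.76-fold and 2.9-fold higher (1.46 and 1.54). In differentiation medium Rbm3 was 3.18-fold lower than in OT (-1.67) and level with WT (-0.05, 95% interval -0.42 to 0.32), while Ptbp2 was 2.18-fold and 2.33-fold higher (1.12 and 1.22). The 2 comparisons in a medium share the TO samples. Ptbp2 probe 2 was higher by 2.23, 2.05, 2.00 and 0.80 in TO-p over OT-p, TO-p over WT-p, TO-d over OT-d and TO-d over WT-d, and probe 3 by 0.66, 1.44, 2.12 and 2.15. All 3 probes were thus higher on average in TO, though by unequal amounts. On probe 2 TO-d (9.35 to 10.64) overlapped WT-d (8.76 to 9.89).

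The partners of the chosen genes can be set beside them. For Ptbp1 the difference was -0.69 for TO-p over OT-p, -0.33 for TO-p over WT-p, -0.45 for TO-d over OT-d and 0.13 for TO-d over WT-d. Cirbp differed by -0.01 between TO-p and OT-p, and by -0.64, -1.13 and -0.80 in TO-p over WT-p, TO-d over OT-d and TO-d over WT-d. The groups did not overlap for 3 members in TO-p against OT-p (50.1% of all genes), 4 in TO-d against OT-d (41.8%), 4 in TO-p against WT-p (20.8%) and 2 in TO-d against WT-d (40.8%). The choice of genes rests on these contrasts, so nothing is read from these counts. Within slides the TO-p over OT-p difference was -1.34, -0.73 and -1.28 for Rbm3 and 1.65, 1.59 and 1.37 for Ptbp2.

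Rbm3 and Ptbp1 varied together. Over the 24 samples, which fall apart by medium, Pearson's r between them was 0.97, and Ptbp1 was among the 5 genes most like Rbm3 out of 13419 ranked. It was -0.335 for Rbm3 with Cirbp, -0.519 for Ptbp1 with Cirbp, -0.57 for Cirbp with Ptbp2 and 0.0126 for the PTB pair. Each array held a pair of these samples, so they are not fully independent, and these correlations are a description.

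**Figure D4:**
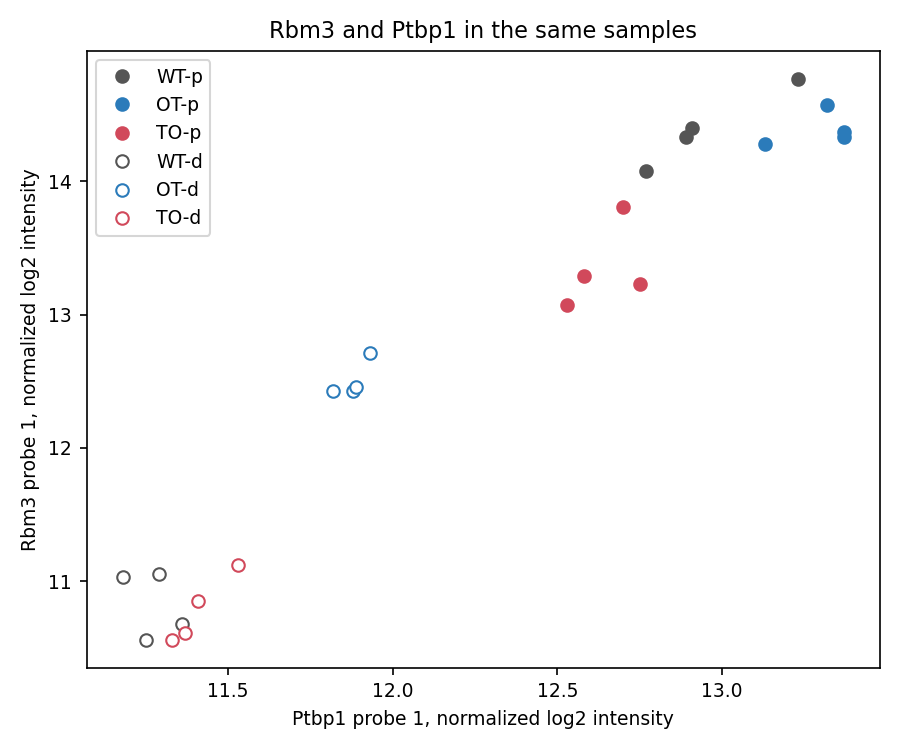
Normalized log2 intensity of Rbm3 probe 1 (y axis) against Ptbp1 probe 1 (x axis) in the 24 samples, coloured by line and open for differentiation medium. The points form a band with WT-p and OT-p at the top, TO-p and OT-d between, and WT-d and TO-d at the bottom.

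The other genes most like Rbm3 were Snx12, a sorting nexin (r = 0.979), Coq7 of ubiquinone synthesis (0.975), the tubulin Tubb4b (0.972) and Snrnp35 of the minor spliceosome (0.971). Ptbp1 was most like Siah1b, a ubiquitin ligase (0.991), Mtfr2 (0.989), the histone chaperone Nasp (0.987), the mitotic kinase Haspin (0.986) and Coq7 (0.985). Cirbp was most like Particl and Gm5622 (both 0.937), Fam216a (0.936), 1700056E22Rik (0.931) and Vwf, von Willebrand factor (0.927). Ptbp2 was most like Skil, a SMAD corepressor (0.986), 1700030K09Rik (0.966), the lysosomal channel Mcoln2 (0.96), Mrps28 of the mitochondrial ribosome (0.953) and Ddah1, which degrades methylated arginine (0.951). Of these 5, 4 lie on chromosome 3 with Ptbp2, a chromosome that holds 4.61% of the ranked genes. The 5 genes most like Rbm3, Ptbp1 and Cirbp held 1, 1 and 0 from their own chromosomes (3.11%, 4.87% and 4.87% of ranked genes). Every TO sample was above all others on Ptbp2 probe 1, a difference behind the choice of Ptbp2. Its ranking rests largely on those values, so nothing is read from its count.

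The neighbourhood of Ptbp2 on chromosome 3 was read out within 5 Mb of its probe, by mm8 positions in the files. Its nearest tested neighbour Dpyd, the first enzyme of pyrimidine breakdown, at -287.1 kb (toward lower coordinates), was higher by 3.97 in TO-p over OT-p and by 3.04 in TO-d over OT-d. Beyond it on that side, Snx7 differed by -0.33 and 0.15 and Plppr5 by 0.16 and -0.07 in the same comparisons. On the other side Rwdd3 differed by 1.39 and 0.37, Tlcd4 by 0.85 and 0.65, and Alg14 by -0.38 and 0.04. Synpo2, an actin-binding protein, differed by 1.16 and 1.13, and Frrs1 by 0.27 and 1.46. Cnn3 differed by -1.35 and 0.60, neither of them called. In TO-p over WT-p and TO-d over WT-d, Dpyd differed by 3.24 and 3.66, Rwdd3 by 0.53 and 0.04, and Tlcd4 by 0.17 and 0.43. OT-p over WT-p was -0.73, -0.86 and -0.68 for these genes, so part of their gap in proliferation medium lay in OT. Of 36 tested neighbours 8 were called higher and 15 lower in TO-p over OT-p, against 30% and 26.3% of all genes, with a median of -0.10. In TO-d over OT-d 9 were higher and 7 lower, against 19% and 20.9%, with a median of 0.06. In TO-p over WT-p 5 were higher and 10 lower, where 3096 and 2574 of 16240 genes were. In TO-d over WT-d it was 14 and 4, where 3733 and 3847 were. Around Rbm3, 49 genes were tested within the same distance. Of these 1 was higher and 22 lower in TO-d over OT-d, and 10 and 15 in TO-p over OT-p. In OT-d over WT-d 21 were higher and 5 lower, against 26.6% and 25.2% of all genes. The part of these neighbours in the values of Rbm3 was not tested.

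**Figure D5:**
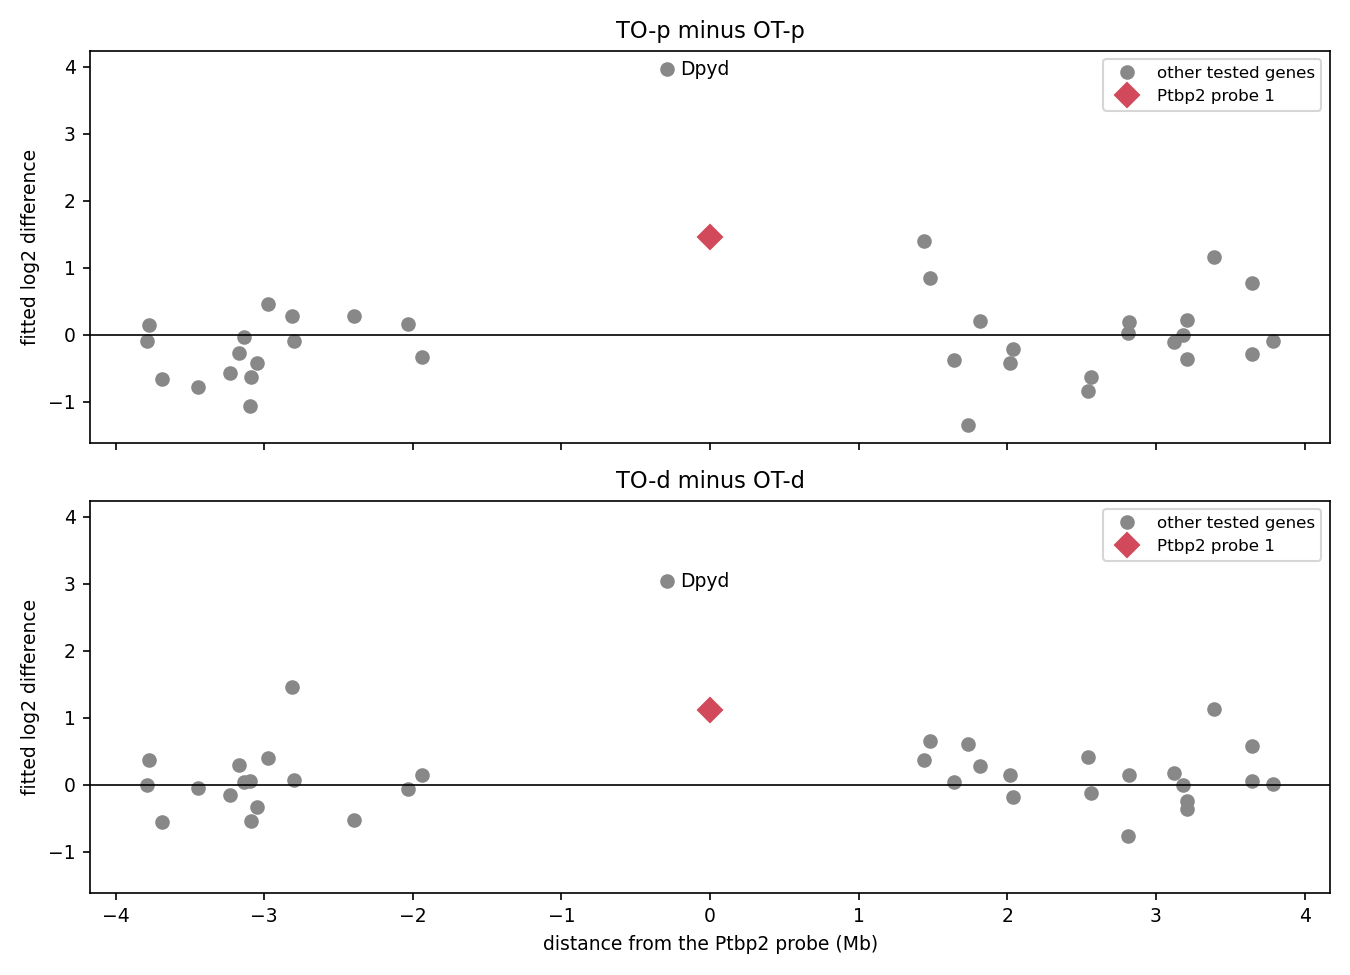
Fitted log2 difference (y axis) of the 36 tested genes within 5 Mb of the Ptbp2 probe by their distance from it in Mb (x axis), for TO-p minus OT-p (top) and TO-d minus OT-d (bottom). Ptbp2 and Dpyd lie above 0 in both, and the other genes lie on both sides of 0.

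Relatives of the cold-inducible pair were read out from a list of hnRNP A/B proteins and RBMX proteins, general binders of nuclear RNA. Of 6 tested, 6 were lower in WT-d than in WT-p, where 30.9% of all genes were, with a median of -1.09 against 0.06 over all genes. In OT 6 of 6 were lower (31% of genes, median -0.64) and in TO 5 of 6 (25.9%, median -0.57). In WT Hnrnpa2b1 fell by 1.70 on the log2 scale, Hnrnpa3 by 1.33, Rbmxl1 by 1.18 and Hnrnpa1 by 1.00, and the largest adjusted p of these was 1.36e-05 (limma). In OT the corresponding values were -1.05, -1.14, -0.61 and -0.68, and in TO -0.61, -1.07, -0.54 and -1.11. In OT-d over WT-d 4 of 6 were higher, where 26.6% of genes were, with 1.19 for Hnrnpa2b1 and 0.88 for Rbmx. Near-identical copies of these genes exist, and a probe cannot always tell them apart.

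Genes tied to RBM3 or CIRBP by earlier work, as regulators or targets, moved in no shared direction. Of 8 tested, 4 were higher and 1 lower in WT-d over WT-p, against 35.9% and 30.9% of all genes. The counts were 4 and 2 in OT (36.4% and 31%) and 3 and 2 in TO (26.5% and 25.9%). With loess alone 2 were lower in WT and 1 in TO. Rtn3, whose translation RBM3 is known to raise, rose by 1.11 in WT, 1.84 in OT and 1.02 in TO (largest adjusted p = 1.23e-09 by limma), the direction opposite to Rbm3. Srsf5, a splicing factor, rose by 0.72 in WT and 0.53 in TO, and Per2, a clock gene, by 0.56 in WT. Clock itself fell by 0.61 in OT.

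Heat shock genes, which respond to temperature in the other direction, were read out beside them. Of the 20 listed genes 17 were tested, and Hspa1a, Hspa1b and Hspb1 were not among them. Of these 17, 3 were higher and 8 lower in WT-d over WT-p, 5 and 9 in OT, and 7 and 1 in TO. The shares of all genes called higher and lower were 35.9% and 30.9% in WT, 36.4% and 31% in OT, and 26.5% and 25.9% in TO. Dnajb4, an Hsp40 co-chaperone, rose by 2.34 in WT, 1.64 in OT and 1.85 in TO. Serpinh1, the collagen chaperone of the ER, fell by 1.69, 0.64 and 1.66. Hsp90aa1 fell by 1.02 and Hspd1 by 0.92 in WT, while Dnajb1 and Hsph1 rose by 0.79 and 0.67 in TO. Between OT and WT 9 were higher and 1 lower in proliferation medium, against 20.6% and 24% of all genes, and 7 and 3 in differentiation medium, against 26.6% and 25.2%. In OT-d over WT-d, where Rbm3 was higher too, Hsph1 was higher by 1.21, Hsp90aa1 by 1.13, Dnaja1 by 0.93 and Dnajb1 by 0.90. With the replicate number as a block 1 rather than 3 heat shock genes was lower in OT-d.

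Among 6 relatives and partners of the PTB proteins, 1 was higher and 3 lower in WT-d over WT-p, 0 and 3 in OT, and 0 and 5 in TO. Of all genes 35.9% and 30.9%, 36.4% and 31%, and 26.5% and 25.9% were called higher and lower in these comparisons. With loess alone the count of lower genes in TO was 3 and that of higher genes in WT was 0. Hnrnpll, a splicing factor of the hnRNP L family, fell by 1.23 in WT, 1.08 in OT and 0.73 in TO, and Hnrnpl by 1.01, 0.79 and 1.20. Ptbp3, the third PTB paralogue, fell by 0.38 in WT and 0.96 in OT, and Raver2, a PTB partner, rose by 0.52 in WT, a call lost with loess alone.

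Neuronal genes whose transcripts PTBP1 is known to lower or retain were higher in differentiation medium in 4 of 5 tested cases in WT, 5 of 5 in OT and 3 of 5 in TO, with none called lower. The share of all genes called higher was 35.9%, 36.4% and 26.5%, and with loess alone the count in WT was 1. Gabbr1, a subunit of the GABA-B receptor, rose by 1.87 in WT, 2.17 in OT and 1.07 in TO. Kif5a, a kinesin heavy chain, rose by 0.38 in WT and 0.69 in TO and 2.15-fold in OT, and the vesicle protein Vamp2 by 0.43, 0.49 and 0.35. Dlg4, which encodes PSD-95, rose by 0.29 in WT. The medians were 0.38, 0.49 and 0.35, against 0.06, 0.04 and 0 over all genes.

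Genes with exons under PTB control, such as Actn1 and Flna, are listed for their total level, since these probes do not separate exon choices. Of 7 tested, 3 were higher and 3 lower in WT (35.9% and 30.9% of all genes), 4 and 1 in OT (36.4% and 31%), and 3 and 2 in TO (26.5% and 25.9%). Actn1, an alpha-actinin, rose by 1.00, 1.25 and 0.65, and Flna, a filamin, fell by 1.27, 0.63 and 0.79. In proliferation medium none was higher and 5 were lower in OT over WT, against 20.6% and 24% of all genes.

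Of 20 tested splicing regulators of neurons and other tissues, 7 were higher and 8 lower in WT-d over WT-p, where 35.9% and 30.9% of all genes were. The counts were 10 and 8 in OT (36.4% and 31%) and 9 and 6 in TO (26.5% and 25.9%). Celf6 rose by 1.81 in WT, 2.31 in OT and 0.85 in TO. The neuronal Hu gene Elavl4 fell by 1.31 in WT, Celf3 fell by 1.64 in WT, and Qk, a regulator of glial and muscle splicing, fell by 1.67 in OT. The response of OT less that of WT was called positive for 12 genes and negative for 4, against 20.4% and 14.6% of all genes. A positive difference can be a smaller fall. Celf3 changed by -1.64 in WT and -0.39 in OT, and Elavl4 by -1.31 and -0.27. The largest such differences were 1.98 for Rbfox1, 1.56 for Celf5, 1.24 for Celf3 and 1.04 for Elavl4 (largest adjusted p = 3.97e-05 by limma), beside 1.62 for Rbm3 and 0.97 for Cirbp. With loess alone the median of all genes in this difference was 0.11 rather than 0.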

How the data were processed

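The deposited scanner tables hold, per the file headers, the intensity and local background of each dye, written by Agilent Feature Extraction 10.5.1.1, which the submitters' processing notes also name. The series table the authors deposited gives a linear intensity for each spot (column medians 102 to 107.7), and its scale and centring steps are not given in the sources used here. The processed signals of the scanner tables, background-subtracted and dye-normalized per the file headers, served as an alternative. All log2 values were computed here from these deposited intensities.

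The software was R 4.3.3, limma 3.58.1 and statmod 1.5.0. Background correction used normexp (offset 50), followed by loess within and Aquantile between arrays. Local backgrounds marked as outliers, 1.81% of them, were replaced by the array's median for that dye, because a bright streak made 1 fit fail; this was chosen after seeing the data. Of the values, 0.444% carried outlier marks and were left out, as were 1639 control spots. The brightest probe stood for a gene. The fit had the 6 groups, a dye term and the array as a block (intraspot correlation 0.447), with eBayes and Benjamini-Hochberg adjustment over 16240 genes at 0.05. Per-probe p-values were adjusted over 24349 probes. Pair differences used exact permutation tests. The planned tests of Rbm3 and Ptbp2 between media in TO are given without p, because the TO samples chose these genes. The fit was tested on simulated data.

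The members, the gene lists and the tests were chosen with earlier results of these data known. Named were all members, the 5 genes most like each, at most 4 genes per list in each comparison, and the nearest or most changed neighbours of Ptbp2. Promoter sequences came from RefSeq (GRCm38.p6), and probe positions are those of the files (mm8). Alternatives were other scalings and filters, slide or replicate number as a block, and leaving out samples.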

Additional observations from a re-analysis of the deposited data

Results flagged for a closer look

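Some member values lay apart from the other 3 samples of their group by the gap criterion of Dixon, which chance alone meets in about 1 of 20 groups, and 48 groups were examined. Rbm3 probe 1 read 12.71 in OT-d replicate 1, against 12.43 to 12.46 in the other OT-d samples. Rbm3 probe 2, close to background, read 6.52 in TO-d replicate 3. Ptbp1 probe 2 read 10.02 in OT-p replicate 3. Ptbp2 probe 1 read 10.79 in WT-p replicate 2, and Ptbp2 probe 2 read 10.36 in TO-p replicate 1.

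Between OT and WT the response to differentiation medium differed for 2 members by the test of that difference, by 1.62 for Rbm3 and 0.97 for Cirbp on the log2 scale. Leaving out each sample in turn kept these between 1.52 and 1.84 and between 0.89 and 1.19. For Rbm3 the test shares WT and OT samples with the TO contrasts behind its choice.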

How the results depend on the processing

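All values are log2 differences. Tested calls that changed were these. For Cirbp, OT-d over WT-d was 0.32 (adjusted p = 0.0569) with slide as a covariate and 0.24 to 0.54 with single samples left out. TO-d over TO-p was 0.29 with processed signals and 0.32 with loess alone. WT-d over WT-p was 0.15 with loess alone, 0.23 without the 6 samples with the letter b and 0.24 to 0.52 with single samples left out. For Ptbp1, the response of OT less that of WT was 0.14 to 0.31 with single samples left out. For Ptbp2, WT-d over WT-p was -0.34 with loess alone and -0.24 without the letter b samples. For values given without a test, Ptbp2 in TO-d over TO-p was -0.25 with the files' local backgrounds, and TO against the other lines moved in 7 cases. With loess alone Ptbp1 was -0.32 in TO-d over OT-d and 0.33 in TO-d over WT-d, and Ptbp2 was 1.44 in TO-d over WT-d. With the files' local backgrounds TO-p over OT-p was -0.82 for Ptbp1 and 1.18 for Ptbp2, and TO-p over WT-p 1.28 for Ptbp2. Without the letter b samples Ptbp2 was 1.65 in TO-p over OT-p. The pair difference Ptbp2 minus Ptbp1 in OT-p over WT-p was -0.31 with the series table values (exact permutation p adjusted to 0.0317). Counts of called genes moved with loess alone. Higher and lower genes were 1979 and 4426 rather than 3342 and 3904 in OT-p over WT-p, 3671 and 5970 rather than 5829 and 5011 in WT-d over WT-p, and 4412 and 2700 rather than 4323 and 4088 in OT-d over WT-d. They were 1952 and 2918 rather than 3096 and 2574 in TO-p over WT-p, 3403 and 1706 rather than 3078 and 3394 in TO-d over OT-d, 4643 and 1537 rather than 3733 and 3847 in TO-d over WT-d, and 3948 and 936 rather than 3310 and 2364 in the difference of responses. The median of all genes in WT-d over WT-p was 0.06, but -0.07 with loess alone and 0.19 with processed signals. The cause of these changes was not tested. The files' local backgrounds, and pair differences under other scalings, were alternatives chosen after seeing the data. Pair differences with a sample left out were not run.

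Same-numbered samples of different groups correlated at -0.3 to 0.32 in their deviations (median -0.0222), and 1 of 24 samples correlated best with its own number. The replicate number went with the dye, so the 2 samples of an array never shared a number, and those correlated at a median of 0.378. This layout worked against a best match by number, so the check cannot decide whether the replicate numbers pair the samples. With the replicate block, 143 of 144 results kept their call or stayed within 1.5 times, Rbm3 in WT-d over WT-p being -3.61, and the exception was the count of heat shock genes lower in OT-d over WT-d, 1 rather than 3. Each group has 1 pair of samples that share a number apart from the letter b, which the labels do not explain. The SD of their log2 difference was 0.17 to 0.406, against 0.151 to 0.404 for the other 30 pairs within groups. Rbm3 probe 2, near background, limits what can be said of that gene from more than 1 probe.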
